A study of Mus musculus with 3 samples.

Results

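The angiopoietin and Tie receptor system was described in adult lung endothelial cells (ECs) through 7 genes taken by symbol from the 24346 genes of the deposited expression table. These were the receptors *Tek* (Tie2) and *Tie1*, the ligands *Angpt1*, *Angpt2* and *Angpt4*, the receptor phosphatase *Ptprb* (also called VE-PTP), and *Svep1*, a large extracellular matrix protein. All 7 had a row. The 3 libraries, S38, S44 and S52, were of 1 condition: wild type male C57BL/6J mice aged 6 to 8 weeks that received an anti-VE-cadherin antibody into the blood shortly before harvest and no other treatment named in the labels. Lung ECs were sorted by FACS as CD31+ CD45- Podoplanin- cells and lysed without culture. The labels do not say whether each library is a separate animal, so the SD given here measures the spread between libraries only. Other organs and stages of the study were not analysed here, so no comparison between conditions could be made, and 3 libraries of 1 group allow no two-sided sign-flip p below 0.25; every value is therefore a description.

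Levels are FPKM as the authors deposited them, that is fragments scaled to gene length and to library size, so that levels of different genes can be set side by side. Where 3 values of a gene or ratio follow each other, they are those of S38, then S44, then S52. Depth, estimated from the smallest steps between the values, was 38000000, 38850000 and 33900000 fragments. All 8 endothelial markers were detected, and their summed level was 6629, 7096 and 6456 FPKM. The 5 lung capillary markers, all detected, summed to 2506, 2797 and 2620.05 FPKM. RNA of other cells was also present, at a summed 3772, 3170 and 759.7 FPKM for 5 alveolar type 2 cell markers and 1838, 1475 and 46.8 FPKM for 7 platelet markers. S52 thus stood apart by its lower alveolar and platelet RNA, and results that rest on it are given with and without it. In a bulk library, fewer cells of a type and less RNA per cell cannot be told apart.

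As background, Tek is the signalling receptor of the system: Angpt1 activates it and keeps vessels quiescent and tight, whereas Angpt2, stored by ECs in Weibel-Palade bodies and released on demand, acts as a weaker or opposing ligand depending on context. Tie1 binds no angiopoietin firmly by itself and acts as a partner of Tek, while Ptprb removes phosphate from Tek and from the VE-cadherin complex and so holds Tek activity down. Active Tek signals through PI3-kinase and AKT, which keeps the FOXO factors out of the nucleus, and *Angpt2* is itself a known FOXO1 target. Svep1 is made mainly by mesenchymal cells and has been described as a ligand of Tie1.

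The receptors and the phosphatase were among the more abundant mRNAs of lung ECs, at mean levels of 267 to 404 FPKM, and the ligands lay at least an order of magnitude lower. A mean of at least 1 FPKM, used here as detected, was reached by 5 of the 7 genes, against 48.3% of all 24346 genes of the table. The mean levels ran *Tie1*, *Tek*, *Ptprb*, *Angpt2*, *Angpt1*, *Svep1* and *Angpt4* from high to low. Neighbours in this order did not overlap between libraries, with the exception of *Angpt2* and *Angpt1*, whose ranges overlapped although *Angpt2* was the higher gene within each of the 3 libraries, and of *Svep1* and *Angpt4*, which kept their order in 2 of 3 libraries. The step from *Ptprb* down to *Angpt2* was 16.8-fold in mean level and that from *Angpt1* to *Svep1* 12.2-fold.

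**Figure D1:**
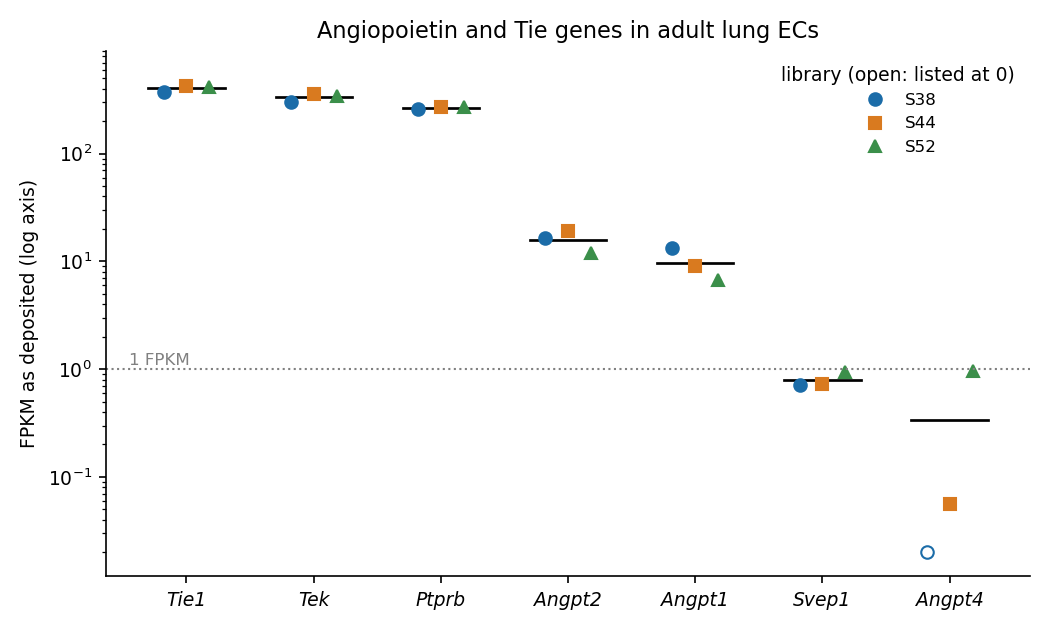
Level of each gene in FPKM as deposited (log axis) in the 3 adult lung EC libraries; points are libraries, horizontal lines are means of the 3, and the open point is a value listed at 0. *Tie1*, *Tek* and *Ptprb* sit between 257 and 426 FPKM, *Angpt2* and *Angpt1* between 6.77 and 19.3 FPKM, and *Svep1* and *Angpt4* below 1 FPKM in all 3 libraries.

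*Tek* lies on chromosome 4 (GRCm38, chr4:94739289-94874976, plus strand) with 23 exons that encode 1123 residues, and *Tie1* lies on the same chromosome (chr4:118471191-118490061, minus strand), also with 23 exons, encoding 1134 residues. The sequence at their 5′ ends is shown because both genes are strongly expressed here and ETS and GATA factors are known regulators of Tie receptor genes. Promoter sequence from RefSeq (GRCm38.p6, 250 bases before to 50 bases after the start) was held for 4 of the 7 genes, *Tek*, *Tie1*, *Angpt4* and *Svep1*. Capitals mark GGAAG, a longer form of GGAA, the core of ETS factor motifs, and do not mark GGAA alone. They also mark AGATAA, the motif of factors such as Gata2. Both were searched on both strands, with the reverse complement in capitals where the match is on the opposite strand. Matches to the 2 motifs do not overlap each other. For *Tek* the 250 bases upstream of the start (chr4:94739039-94739288, plus strand) hold neither GGAAG nor AGATAA. The shorter GGAA does occur there on the opposite strand, as ttcc in the printed sequence. A window downstream of the start (chr4:94739313-94739338, plus strand) holds an AGATAA whose first base is base 37 of the transcript. For *Tie1* a 30-base window (chr4:118490062-118490091, minus strand), which ends directly before the gene as GENCODE annotates it, holds a GGAAG on each strand. The RefSeq start of *Tie1* lies 212 bases inside the GENCODE gene, and that of *Svep1* 263 bases inside, so most or all of these promoter windows lies within the annotated gene.
Tek upstream: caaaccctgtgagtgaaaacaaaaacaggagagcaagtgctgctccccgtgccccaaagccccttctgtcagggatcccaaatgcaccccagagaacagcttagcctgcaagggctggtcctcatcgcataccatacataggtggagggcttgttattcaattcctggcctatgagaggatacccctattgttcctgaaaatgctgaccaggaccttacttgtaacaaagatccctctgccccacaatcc
Tek downstream window: agcaggagcagaAGATAAgccttgga
Tie1 upstream window: tctcaataggcGGAAGccactggCTTCCtc
Over the whole promoter windows, including the 50 bases after the start, GGAAG matched 0 times in *Tek*, 7 times in *Tie1*, 4 times in *Angpt4* and 3 times in *Svep1*, and 71.4% of all 32851 promoters in the table hold it at least once (median 1). AGATAA occurred only in the *Tek* window of these 4, and 11.2% of all promoters hold it. A letter match is a description and does not show that a factor binds.

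*Tie1*, the orphan partner receptor, measured 375, 426 and 411 FPKM (404 ± 26.0, SD, n = 3 libraries), which placed it 272nd of 24346 genes. *Tek*, the angiopoietin receptor, measured 299, 354 and 346 FPKM (333 ± 29.7), 315th of all genes. Both receptors were lowest in S38 and close together in the other libraries, and each *Tie1* value lay above every *Tek* value. *Tie1* exceeded *Tek* by a factor of 1.26, 1.20 and 1.19, a mean log2 ratio of 0.28 ± 0.04 (SD, n = 3). This ratio is taken within a library and does not depend on how the libraries are scaled.

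Relative to *Cdh5* (VE-cadherin, the junction protein of all ECs, 921 ± 51.5 FPKM), *Tek* was present at 0.341, 0.362 and 0.381 of the *Cdh5* level, and *Tie1* at 0.428, 0.435 and 0.453. Both shares varied little between libraries although the summed alveolar, platelet and leukocyte markers varied several-fold. *Tek* varied with a CV of 8.93% and *Tie1* with a CV of 6.42%, against a median of 17.6% over the 11770 detected genes. Of these genes, 19.6% had a lower CV than *Tek* and 11.3% a lower CV than *Tie1*.

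Within the family of receptor tyrosine kinases, 31 of 58 genes were detected, a share near the 48.3% of all genes, and *Tie1* and *Tek* had the highest and second highest mean. *Kdr* (VEGFR2, the main VEGF receptor of ECs) followed with 379.9, 360.4 and 237 FPKM (326 ± 77.6), then *Flt1* (VEGFR1) with a mean of 146 FPKM and *Kit* with 93.9 FPKM. The place of *Tek* was not separable from that of *Kdr*: the *Tek* to *Kdr* ratio was 0.786, 0.982 and 1.46, so *Kdr* was the higher in S38 and S44 and *Tek* in S52. Without S52, *Tek* ranked 3rd of the kinases and *Tie1* 1st. By library, *Tie1* ranked 2nd, 1st and 1st and *Tek* 3rd, 3rd and 2nd.

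**Figure D2:**
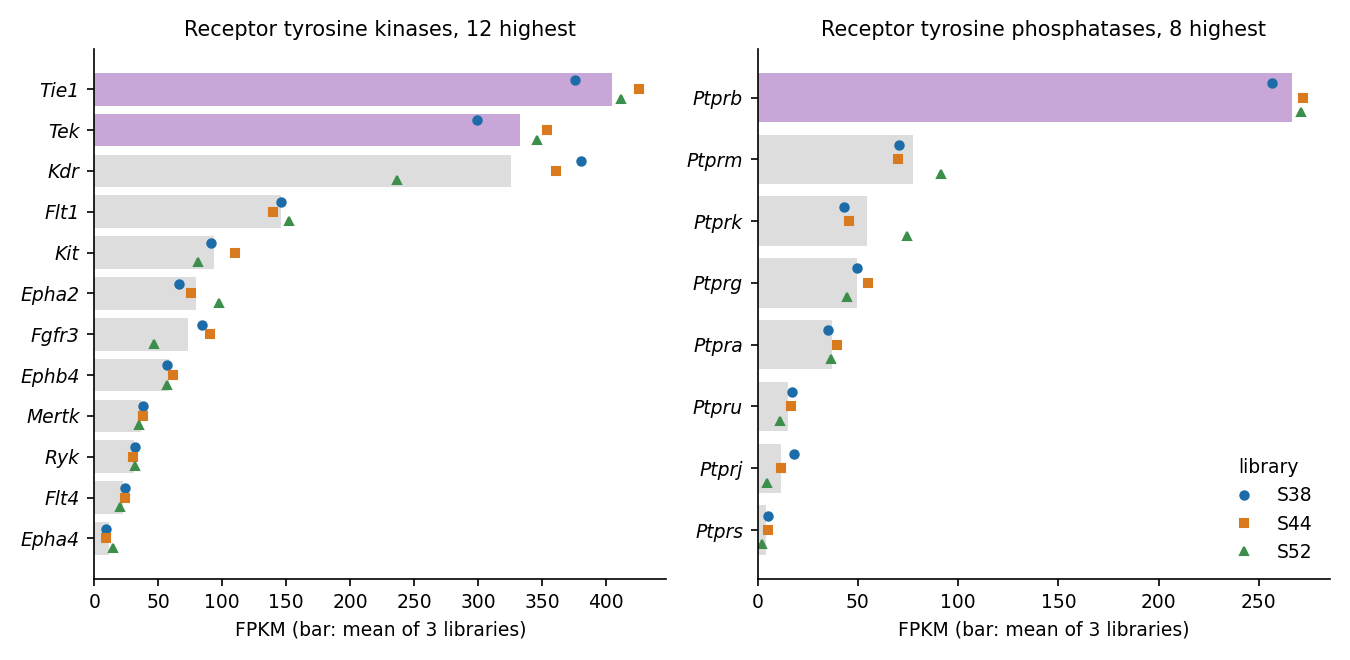
Mean level (bars, FPKM on a linear axis from 0) and library values (points) of the 12 highest receptor tyrosine kinases and the 8 highest receptor tyrosine phosphatases in adult lung ECs, with *Tie1*, *Tek* and *Ptprb* in purple. *Kdr* overlaps *Tek* and *Tie1* between libraries (237 to 379.9 FPKM), whereas every *Ptprb* value (257 to 272 FPKM) lies above all values of the next phosphatase, *Ptprm*.

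*Ptprb* (chr10:116275523-116389535, plus strand, 34 exons, 2285 residues) measured 257, 272 and 271 FPKM (267 ± 8.51), 384th of all genes. As deposited it was the steadiest of the 7 genes, with a CV of 3.19%, and 3.02% of detected genes had a lower CV. After rescaling to the same sum of all FPKM values its CV was 13.7%, against 7.99% for *Tek* and 10.2% for *Tie1*, so it was then no longer the steadiest. It had the highest level of the 21 receptor tyrosine phosphatases in each library, 3.65, 3.88 and 2.97 times that of *Ptprm*, the second by mean (77.3 FPKM). *Ptprk* (54.5 FPKM), *Ptprg* (49.8 FPKM) and *Ptpra* (37.0 FPKM) came next. Of the 21 genes, 13 were detected (61.9%, against 48.3% of all genes). *Ptprm* is also an endothelial adhesion phosphatase.

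The phosphatase transcript was present at 0.860, 0.768 and 0.785 of the *Tek* level, a mean log2 ratio of -0.32 ± 0.09 (SD, n = 3). Its level relative to *Cdh5*, whose protein complex Ptprb also dephosphorylates, was 0.293, 0.278 and 0.299. GENCODE M21 gives *Ptprb* basic transcripts of 7016 and 11911 bp. Which gene length the FPKM values used is not given in the sources used here, so the ratio of *Ptprb* to another gene is less certain than its spread between libraries.

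Of the ligands, *Angpt2* was the highest and *Angpt1* next, and both were well above the detection limit. *Angpt2* (chr8:18690263-18741562, minus strand, 9 exons, 496 residues), the ligand made by ECs themselves, measured 16.4, 19.3 and 12.02 FPKM (15.9 ± 3.65), 4675th of all genes. The values stand for an estimated 2122, 2543 and 1389 fragments, and their 95% Poisson intervals of 15.7 to 17.1, 18.5 to 20.02 and 11.4 to 12.7 FPKM, which cover counting error only, do not overlap. As deposited, the libraries therefore differed by more than the counting error that these intervals cover, with S52 lowest. The order of S38 and S44 depended on how the libraries are scaled, as given below. The gene lies inside the *Mcph1* gene on the opposite strand without sharing exon sequence, and *Mcph1* itself was at a mean of 0.656 ± 0.300 FPKM.

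*Angpt1* (chr15:42424723-42676977, minus strand, 9 exons, 498 residues), the activating ligand known mainly from mural cells, fibroblasts and platelets, measured 13.2, 9.14 and 6.77 FPKM (9.70 ± 3.25), 6369th of all genes. The counting intervals, 12.6 to 13.8, 8.68 to 9.62 and 6.34 to 7.21 FPKM, again do not overlap. S38 was 1.95 times S52, and 78.6% of detected genes had a lower CV than the 33.5% of *Angpt1*. The annotated exons share 737 bp with the antisense gene *Gm17473*, which has no row of its own in the table used here, and the libraries hold no strand information, so reads of that stretch cannot be assigned to a strand.

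*Angpt2* exceeded *Angpt1* by 1.25, 2.11 and 1.78 times, a mean log2 ratio of 0.74 ± 0.39 (SD, n = 3). The direction was the same in the 3 libraries, and the size of the ratio varied more than that of the receptors. The receptor transcript was the more abundant: *Tek* was 18.2, 18.4 and 28.8 times *Angpt2* and 22.7, 38.7 and 51.1 times *Angpt1*. The ratio to *Angpt2* was nearly the same in S38 and S44 and higher in S52. Without S52 the mean level was 17.8 FPKM for *Angpt2* and 11.2 FPKM for *Angpt1*, in the same order.

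Markers of the other cells that are known to make *Angpt1* moved between the libraries as well. The *Angpt1* order of S38, S44 and S52 from high to low was also that of the summed platelet markers (1838, 1475 and 46.8 FPKM, 7 of 7 detected). The summed fibroblast markers (75.7, 57.6 and 44.2 FPKM, 5 of 5 detected) had it too, but of these genes only *Dcn* and *Col1a1* had it singly. The summed leukocyte markers (1078, 817 and 186 FPKM, 4 of 5 detected, *Cd3e* below 1 FPKM) also had it, although the sort took CD45- cells. The leukocyte sum consists mainly of *Lyz2* (1047, 780 and 166 FPKM). *Ptprc*, the CD45 gene, was at 4.30, 2.06 and 0.434 FPKM, and *Cd68* was highest in S44. The alveolar type 2 and tip cell sums had the *Angpt1* order too, and it held for 26.7% of all detected genes. Of the tip cell markers, only *Esm1* had it singly. *Apln*, the largest of them, was highest in S44, and *Cxcr4*, *Pgf* and *Kcne3* were lowest in S44. The mural markers, which include the pericyte receptor *Pdgfrb*, ran differently, with 138, 72.0 and 136 FPKM (8 of 8 detected), lowest in S44. Singly, *Pdgfrb* (6.47, 4.80 and 10.1 FPKM), *Rgs5*, *Cspg4* and *Notch3* were highest in S52, and *Acta2*, *Myh11*, *Des* and *Kcnj8* in S38. In S52, where the platelet markers were lowest, *Angpt1* was at 6.77 FPKM. The part of each of these cells in the *Angpt1* level was not tested.

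As deposited, *Angpt2* had the order S44 above S38 above S52, as did 19.96% of detected genes. The summed endothelial markers and the summed mesothelial markers had it too. Of the endothelial markers, only *Cldn5* (1486, 1732 and 1029 FPKM), the largest, and *Esam* had this order singly. *Pecam1* and *Cdh5* were lowest in S38, *Emcn*, *Erg* and *Egfl7* were highest in S52, and *Ramp2* was highest in S38. The *Angpt2* order also held for the summed venous markers (410, 450 and 305 FPKM, 4 of 5 detected, *Ackr1* below 1 FPKM) and for the summed lymphatic markers (575, 634 and 414 FPKM, 4 of 5 detected). Of the venous markers, only *Vwf*, the largest, and *Slc6a2* had this order singly. *Nr2f2* (2.89, 2.34 and 3.04 FPKM) and *Ackr1* were highest in S52, and *Vcam1* was lowest in S38. The lymphatic sum consists mainly of *Lyve1*, at 509 FPKM, which lung capillary ECs are also known to express. *Prox1*, the factor that defines lymphatic ECs, was at 0.132, 0.173 and 0.598 FPKM, near 0 in each library. The tip cell markers, a state in which *Angpt2* is known to be high, summed to 137, 128 and 95.3 FPKM (5 of 5 detected), with *Apln* at 70.1 FPKM the largest and *Esm1* at 27.7 FPKM. Their part in the *Angpt2* level was not tested.

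**Figure D3:**
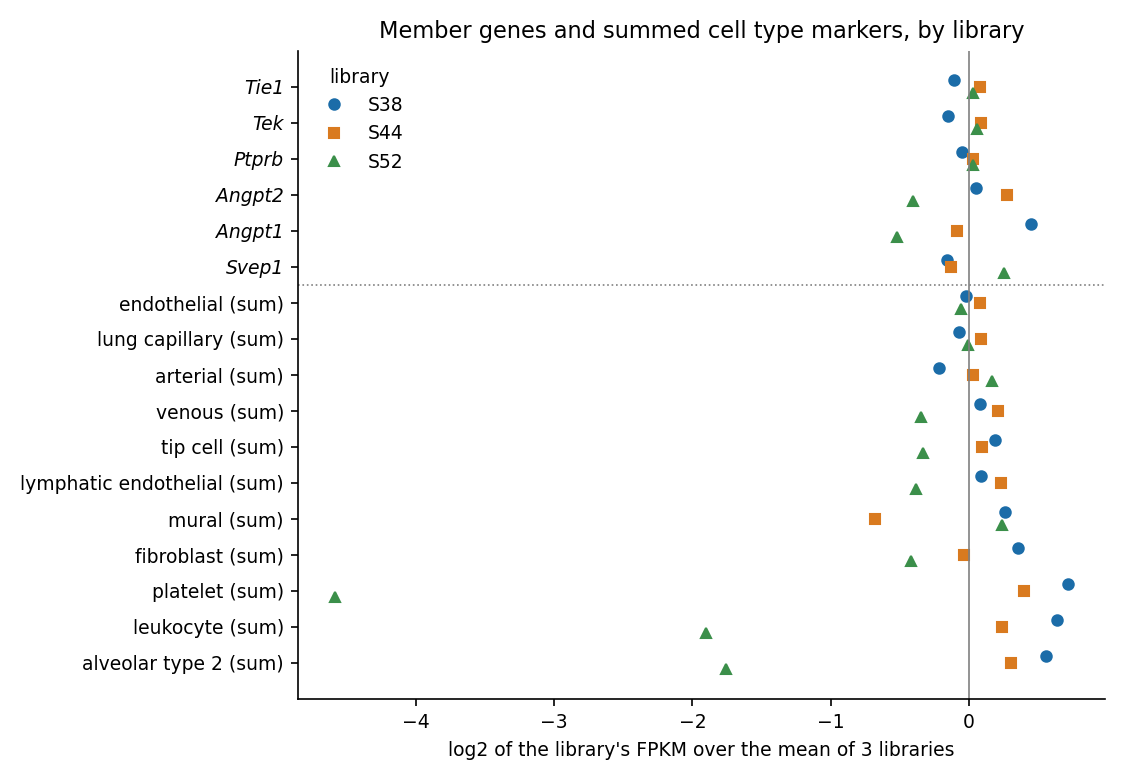
Level of genes and of summed marker lists in a library over the mean of the 3 libraries (log2). *Angpt4* and the mesothelial sum are left out because each has 1 library at 0. *Tie1*, *Tek* and *Ptprb* lie within 0.16 of 0, *Angpt1* runs from 0.44 in S38 to -0.52 in S52, and the platelet sum falls to -4.58 in S52.

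*Angpt4* (chr2:151911210-151945337, plus strand, 9 exons, 509 residues), the third angiopoietin and a Tek agonist, was listed at 0, 0.0561 and 0.964 FPKM, with S52 the highest. These values stand for an estimated 0, 5 and 71 fragments. At the depth of S38 a count of 0 allows up to 0.0363 FPKM (3 fragments), and the 95% Poisson interval in S52 was 0.749 to 1.21 FPKM, apart from 0.0192 to 0.138 FPKM in S44. The gene was below 1 FPKM in each library, and its presence above a few fragments rested on S52 alone: the mean of 0.340 FPKM became 0.0281 FPKM without S52. The summed arterial markers (245, 290 and 319 FPKM, 4 of 5 detected, *Dkk2* below 1 FPKM) had the same order of libraries, as did 16.0% of detected genes. Of the arterial markers, only *Gja4* (58.1, 88.7 and 112 FPKM) had this order singly. *Gja5*, *Dkk2* and *Efnb2* were highest in S44, and *Hey1* was lowest there. The part of arterial cells in the *Angpt4* level was not tested.

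*Svep1* (chr4:58042442-58206859, minus strand, 48 exons, 3567 residues) measured 0.715, 0.730 and 0.949 FPKM (0.798 ± 0.131), 12140th of all genes and below the detection limit in each library. Because its transcript is 11629 bp long, the level still stands for an estimated 312, 325 and 369 fragments, with counting intervals of 0.639 to 0.800, 0.652 to 0.813 and 0.854 to 1.05 FPKM. S52 was above the other libraries, whose intervals overlapped each other. Part of its exon sequence, 2244 bp, is shared with the antisense gene *Gm26889*, which has no row in the table used here, and the strand of such reads is not known. Fibroblast markers were lowest in S52 and mesothelial markers, which include *Msln*, were at a summed 2.34, 6.14 and 0 FPKM (1 of 4 detected), so neither list shared the order of *Svep1*, and the part of these cells in its level was not tested.

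Of the 7 genes, 1 differed by over 2-fold between its highest and lowest library (*Angpt4*), against 42.1% of the 17163 genes above 0 in at least 1 library. None of the 5 detected genes did, against 20.1% of the 11770 detected genes. The count for the 5 detected genes turned on how the libraries are scaled: after rescaling to the same sum of all FPKM values, *Angpt1* ran from 15.9 FPKM in S38 to 6.64 FPKM in S52, 2.40-fold. Short noncoding genes made up 59.6%, 70.2% and 66.8% of those sums. The same rescaling turned the library order of *Tek*, *Tie1* and *Ptprb*, which were then highest in S38, at 360.5 FPKM for *Tek*, 453 FPKM for *Tie1* and 309.9 FPKM for *Ptprb*, while *Angpt1* was highest in S38 and lowest in S52 under each of the 3 rescalings, *Angpt2* was lowest in S52 and *Angpt4* was highest there. *Angpt2*, highest in S44 as deposited, was highest in S38 after rescaling to the same sum of all FPKM values, at 19.8, 16.7 and 11.8 FPKM. No 51-base stretch of any of the 7 genes, the length of a read, occurs in another of them.

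The genes with the most similar levels over the 3 libraries were chosen by distance on the log2(FPKM + 1) scale, the root of the summed squared differences. Near *Tek* were *Arf1* (0.0379) and *Mcl1* (0.158), and *Tie1* was closest to *Arpc3* (0.0150), *Aldh2* (0.0348) and *Sod1* (0.0797). *Ptprb* was closest to *Gnb2* (0.0732), *Slc3a2* (0.101) and *Gabarap* (0.123). *Angpt1* was closest to *Eral1* (0.0670), *Alg9* (0.0744) and *Zfyve21* (0.0873), and *Angpt2* to *Atg13* (0.0653), *Tsen15* (0.0917) and *Amn1* (0.107). With 3 libraries of 1 condition, this likeness is chiefly one of mean level.

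Of 71 genes in 7 lists around the system, upstream and downstream of the receptors, 63 were detected (88.7%, against 48.3% of all genes). Of the 71, 13 differed by over 2-fold between libraries, against 42.1% of genes above 0 in at least 1 library. Among the 11770 detected genes of the table the share was 20.1%, the nearer base because most of the 71 were detected. Among 20 adaptors and PI3-kinase pathway genes, 19 were detected, led by *Akt1* (90.1 FPKM), the kinase at the centre of Tek survival signalling, and the adaptors *Nck1* (51.8 FPKM) and *Grb2* (46.5 FPKM). The Tek adaptor *Grb14* was at 28.3 FPKM and the catalytic subunit *Pik3ca* at 13.7 FPKM. *Dok2*, the adaptor also called Dok-R, was at 2.28, 0.707 and 0.641 FPKM, and *Grb7* was the lowest at 0.610 FPKM. *Foxo1*, the factor that AKT restrains, measured 12.3, 13.3 and 10.2 FPKM, *Foxo3* 7.06 FPKM and *Foxo4* 13.2 FPKM.

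All 7 junction and phosphatase target genes were detected, at 50.7 FPKM (*Fgd5*) or above, with *Cdh5*, *Kdr* and *Ctnnb1* (beta-catenin, 264 FPKM) the highest. Of 13 genes of Weibel-Palade bodies and their release, the store of Angpt2 protein, 12 were detected. The main cargo *Vwf* measured 298, 314 and 235 FPKM, *Pdcd10*, which holds back granule release, 64.9 FPKM, and the granule membrane protein *Cd63* 54.9 FPKM. *Rab3b* was lowest at 0.186 FPKM. *Sytl4* (16.1, 13.1 and 1.87 FPKM) and *Unc13d* (6.29, 5.72 and 1.27 FPKM), 2 exocytosis factors that platelets also use, were lowest in S52, where the platelet markers were lowest, and the part of platelet RNA in them was not tested.

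Each of the 7 integrin subunits listed around the system was detected. *Itgb1* led with 333, 333 and 363 FPKM, followed by *Itga3* (104 FPKM) and *Itgb5* (67.1 FPKM), and *Itga9* was lowest at 5.38 FPKM. *Itgb3*, which is also the beta subunit of the platelet fibrinogen receptor, varied most of the 7 with 65.5, 50.5 and 3.48 FPKM, and the part of platelet RNA in it was not tested. Of the genes that shed or protect the receptor ectodomains, the inhibitor *Timp3* (250.4 FPKM) was the highest, and the proteases *Adam17* and *Mmp14* were at 16.5 and 13.4 FPKM.

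Of 14 endothelial transcription factors, 12 were detected, with *Klf4* (305 FPKM), *Klf2* (199 FPKM), both flow-responsive, and *Ets2* (133 FPKM) the highest. *Ets1* was at 110.2 FPKM, *Gata2* at 100.4 FPKM and *Erg* at 62.4 FPKM. *Foxc1* (0.748 FPKM) and *Foxc2* (0.216 FPKM) were below the limit. Of the 7 angiopoietin-like genes, which encode related secreted proteins that do not bind Tek, 3 were detected, *Angptl2* (7.28 FPKM), *Angptl4* (5.51 FPKM) and *Angptl6* (3.15 FPKM). The lowest was *Angptl1* at 0.0252 FPKM.

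**Figure D4:**
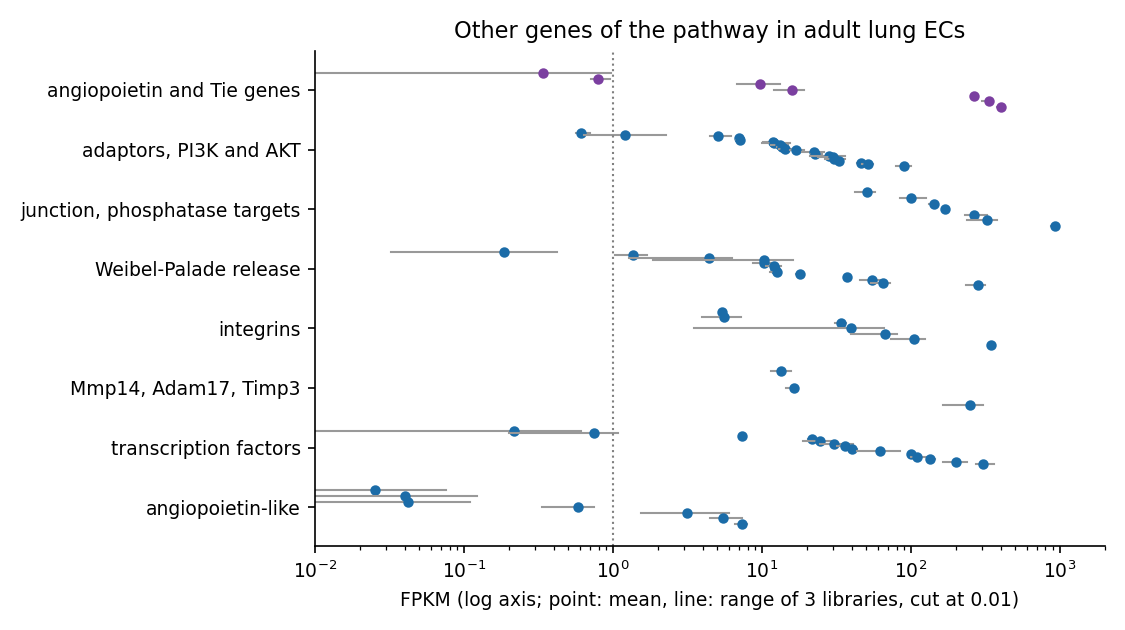
Mean level (points) and range of the 3 libraries (lines) of the 7 angiopoietin and Tie genes and of 71 other genes of the pathway, in FPKM on a log axis cut at 0.01, with the dotted line at 1 FPKM. The junction genes start at 50.7 FPKM, whereas 4 of the 7 angiopoietin-like genes lie below 1 FPKM.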

How the data were processed

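Poly-A selected RNA of sorted adult lung ECs was sequenced as non-stranded 51 bp paired reads. The table the authors deposited gives FPKM, by gene symbol, for the mm10 genome. The submitters' processing notes name bcl2fastq 2.17, FastQC 0.11.5, Trimmomatic 0.36, TopHat2 2.1.0 and Cufflinks 2.2.1, whereas the study's methods describe STAR and HTSeq for its counts. The gene annotation behind the FPKM values is not given in the sources used here. A batch correction is described for the counts and for no FPKM value. 0 columns were left out.

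Values were used as deposited, with pandas 2.3.3 in Python 3.11.15. FPKM is no count, so no count model was fitted. Means, SDs, ranks, ratios within a library and counts at a mean of at least 1 FPKM are descriptions. No paired analysis applies to 1 group. Depth was estimated by searching, over genes with 1 basic transcript of 800 to 4000 bp, for the FPKM step worth 1 fragment: 78.4%, 77.4% and 74.9% of 324, 412 and 207 small values came out whole to within 0.15 fragments. On simulated data for 7077 genes the error was at most 0.0634%. The simulation drew whole counts with the same gene lengths and length correction as the fit. Its error therefore covers the search alone and does not measure how accurate the depths of the real libraries are. Intervals are exact 95% Poisson intervals, floors use 3 fragments, and both cover counting error only, since molecules cannot be told from PCR copies. Positions and lengths are from GENCODE M21 (GRCm38).

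The members, gene lists and methods were chosen with earlier results of these data known. Named genes are the 7 members, genes of the pathway lists (at least the 3 highest and the lowest of each), the 5 highest of either receptor family, the 3 nearest genes of each detected member, and marker genes where a sentence needs them. A gene that this rule covers is not reported here. *Mcph1*, *Gm17473* and *Gm26889* are named for their overlap. *Angptl8* stands in the table under the synonym *Gm6484*. Alternatives were 3 rescalings, pseudocounts, other detection limits, medians, and leaving out each library.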

Additional observations from a re-analysis of the deposited data

How the results depend on the processing

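Of 100 alternatives to 18 results, 95 left the value within the spread between libraries (1 SD), or a count within 1.5 times. For levels and log2 ratios this was largely fixed in advance. Leaving out 1 of 3 libraries cannot move their mean by as much as the SD. The rescalings of the levels keep the average scale of the libraries. The 95 is therefore no measure of how robust those results are. The count of genes over 2-fold between libraries, 1 as deposited, was 0 among detected genes and 0 with a pseudocount of 1 FPKM, both of which remove or damp *Angpt4* by construction. It was 2 after rescaling to the same sum of all genes, an alternative added after seeing the data, which brought in *Angpt1*. The rank of *Tek* among receptor tyrosine kinases, 2 by the mean, was 3 by the median of the libraries and ran from 2 to 3 when 1 library was left out, at 3 without S52. The level of *Angpt4* ran from 0.0281 to 0.510 FPKM, lowest without S52 and highest without S38. Leaving out 1 library gave log2 ratios of 0.26 to 0.30 for *Tie1* to *Tek*, -0.37 to -0.28 for *Ptprb* to *Tek*, 0.57 to 0.95 for *Angpt2* to *Angpt1* and -1.51 to -1.43 for *Tek* to *Cdh5*. The *Tek* to *Angpt2* ratio and its alternatives (4.19 to 4.52) were added after seeing the data. No paired analysis was possible because the libraries form 1 group. Depth limits statements on *Angpt4* in S38 and S44.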
